A study of Mus musculus with 21 samples.

Results

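Gbx2, Uncx, Lhx9, Otx2, Otx1 and Tcf7l2 are regulators of gene expression known from the diencephalon or other parts of the forebrain. Otx1 and Lhx9 are also expressed in the cortex. All 6 were followed here in rostral cerebral cortex at embryonic day 14 in mice with mutations of Pax6. Pax6 is a transcription factor of cortical radial glia with a paired domain and a homeodomain. The 6 genes were chosen as regulators of diencephalic or ectopic forebrain identity, with earlier results of these data known, and were found through the platform's annotation in 12 of 45101 probe sets. Of these 12 probe sets, 11 passed the filter on low values, with at least 1 for every gene, so that the 6 genes stood among 13850 genes tested. Gbx2 passed the filter only through the 4 arrays of Sey mutants.

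The diencephalon lies behind the telencephalon and gives rise to the thalamus, habenula, prethalamus and pretectum. Homeodomain proteins that are active in separate bands and layers of the neural tube give these regions their identities, and Wnt signals from the dorsal midline act on the same cells. Gbx2 marks neurons leaving the cell cycle in the thalamus, and Lhx9 is a LIM-homeodomain factor of thalamic neurons that early-born neurons of the cortex also express. Uncx is a homeodomain factor of the paired type, known from the somites and from parts of the forebrain and midbrain. Otx2 is needed for the formation of the forebrain and midbrain and later stays on in the diencephalon and in the dorsal midline of the telencephalon, including the choroid plexus. Otx1, its relative, is expressed in cortical progenitors and later in deep-layer neurons. Tcf7l2 is not a homeobox gene: it encodes an HMG-box protein of the TCF/LEF family that brings beta-catenin to target genes of Wnt signals, and it is abundant in the thalamus.

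The mutants were Sey (Small-eye; Sey), with 4 arrays, Leca4, with 3 arrays, and Leca2, with 4 arrays. Each was set against control littermates of its own line, which had 3, 4 and 3 arrays for Sey, Leca4 and Leca2. Sey and its controls were of strain C57BL/6J x DBA/2J (B6D2F1), and both Leca lines with their controls were of strain 129 S6. All embryos were untreated and of embryonic day 14, and the labels give neither the zygosity of the mutants nor the sex of any embryo. Sey truncates the Pax6 protein, and from general knowledge not checked here Leca4 alters the PAI and Leca2 the RED subdomain of the paired domain. The mutations act in all cells of the embryo, so that cells outside the cortex were mutant too. The labels call the arrays of a group biological replicates, and their small number limits the precision of every value.

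Promoter windows of 200 bases, from 250 to 51 bases before an annotated start, were read from RefSeq (GRCm38.p6) for 5 of the 6 genes in 9 windows; Otx1 was not among them. The Gbx2 window is chr1:89931227-89931426 on the minus strand, and the Uncx window is chr5:139543648-139543847 on the plus strand. Both are printed 5′ to 3′ because these genes had the largest rises of the 6, from background in Sey controls, with capitals for TAAT, the core of most homeodomain sites, on either strand.
Gbx2: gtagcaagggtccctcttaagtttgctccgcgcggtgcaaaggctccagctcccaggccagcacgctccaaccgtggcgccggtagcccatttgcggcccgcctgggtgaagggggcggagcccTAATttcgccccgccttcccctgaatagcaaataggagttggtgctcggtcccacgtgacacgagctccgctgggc
Uncx: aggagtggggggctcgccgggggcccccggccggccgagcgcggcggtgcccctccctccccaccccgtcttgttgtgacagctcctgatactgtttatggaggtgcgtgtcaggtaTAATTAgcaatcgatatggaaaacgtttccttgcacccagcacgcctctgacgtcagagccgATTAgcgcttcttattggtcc
The Gbx2 window holds TAAT once, 126 bases before the start. The Uncx window holds it 3 times, at 133, 131 and 71 bases, of which the first 2 overlap in the palindrome TAATTA. Over 32851 mouse windows of this length, 50.1% hold TAAT and 4.19% hold TAATTA. Neither the TCF/LEF core CTTTGA, found in 11.8% of all windows, nor TTCACGC, part of the sequence that the Pax6 paired domain prefers and found in 0.828%, occurs in any of the 9 windows. These are matches of letters on both strands and do not locate binding. The GC content was 65.0% for Gbx2 and 61.0% for Uncx, against a median of 51.5% over all windows.

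Values are log2 RMA signals of each gene's brightest probe set that passed the filter. A value at or below the 40th percentile of its array, between 5.37 and 5.60, is called background. Changes are mutant minus control with the standard error of the fit, and adjusted p-values are from limma with Benjamini-Hochberg adjustment over the 13850 genes, with a gene called under 0.05. Pax6 transcript was present in all groups. On its brightest probe set it was higher in mutants than in controls, by 0.56 ± 0.09 for Sey, 0.49 ± 0.09 for Leca4 and 0.93 ± 0.09 for Leca2, with adjusted p-values of 0.000184, 0.00276 and 1.10e-05. The other kept probe sets, 1437816_at, 1452526_a_at and 1456342_at, gave 0.19, 0.60 and 0.57 in Sey, 0.07, 0.17 and 0.16 in Leca4, and 0.42, 0.86 and 0.34 in Leca2. None of these was called in Leca4, nor was 1437816_at in Sey or 1456342_at in Leca2. The level of Pax6 thus does not check the genotype labels. Of 12 markers of dorsal cortex, the 10 with a probe set here were each above background on some arrays of all 6 groups. Genes of the X and Y chromosomes showed 1 male and 3 females among Sey mutants and 3 males among their controls, 2 males and 1 female among Leca4 mutants and 3 males and 1 female among their controls, and 2 males and 2 females among Leca2 mutants and 3 females among their controls. The lines appear to have been normalized separately, and Sey differs from the Leca lines in strain as well as allele.

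**Figure D1:**
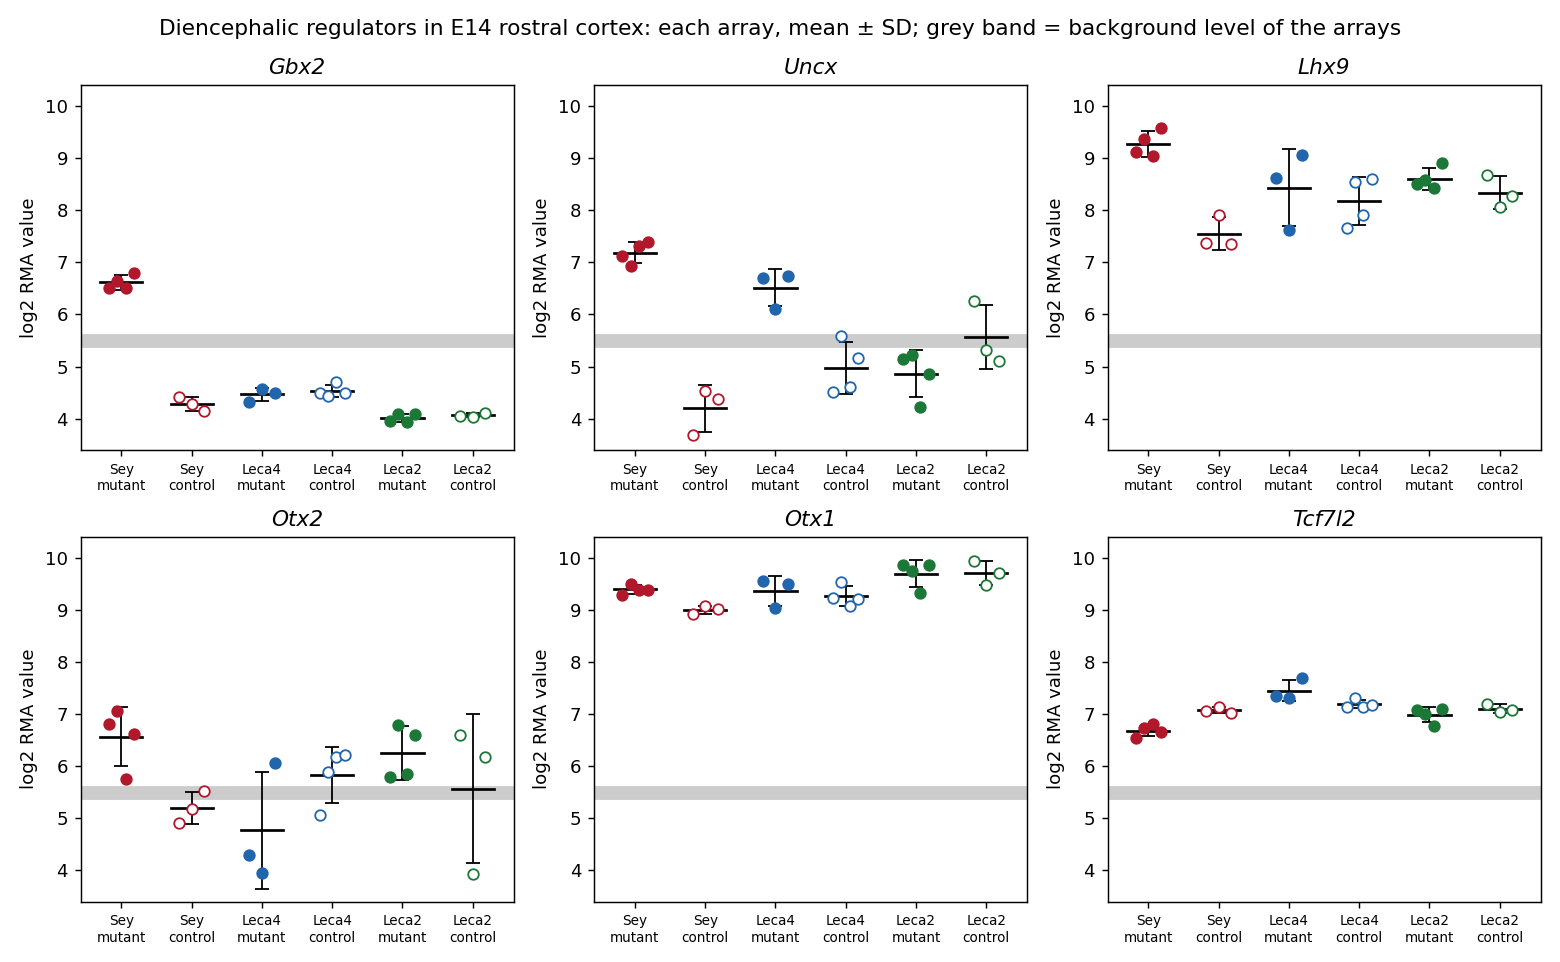
Log2 RMA value of each gene on each array (points), with the mean and SD of each group (bars), for mutants (filled) and controls (open) of the 3 lines; the grey band spans the background level of the arrays. Gbx2 is above the band in the 4 Sey mutants and in no other array, Uncx in Sey and Leca4 mutants and in 1 Leca2 control, and Lhx9, Otx1 and Tcf7l2 in every array.

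In Sey cortex Gbx2, Uncx and Lhx9 rose and Tcf7l2 fell. That is 4 of 6 genes called, beside 20.2% of all genes (10.7% up and 9.41% down); the shares stand side by side as a description, since the 6 were chosen with earlier results known and Gbx2 was tested only through its values in Sey mutants. Mutant and control arrays did not overlap for any of the 6 genes, where 31.0% of all genes had no overlap. The median change of the 6 genes was 1.54 and that of all genes 0.00 on the log2 scale. In Leca4 cortex 1 of the 6 genes was called, Uncx, which rose, where 5.62% of all genes were called (3.39% up and 2.24% down). In Leca2 cortex limma called none of the 6, where 0.477% of all genes were called, and 1 of them had an unadjusted p under 0.05, as 6.84% of all genes had. The median changes of the 6 genes were 0.18 in Leca4 and -0.03 in Leca2, against 0.01 for all genes in both.

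Gbx2 was at background in every group except Sey mutants. Its values were 6.51, 6.65, 6.50 and 6.80 in Sey mutants, against 4.42, 4.28 and 4.14 in Sey controls. The groups did not overlap, and the gap between them was wider than the range within either. Since the controls gave only background, the difference was at least 2.34-fold, with a fitted change of 2.33 ± 0.08 and an adjusted p of 1.09e-12. Gbx2 was 4.33, 4.58 and 4.50 in Leca4 mutants, against 4.49, 4.44, 4.71 and 4.50 in Leca4 controls. It was 3.95, 4.09, 3.94 and 4.08 in Leca2 mutants, against 4.06, 4.04 and 4.12 in Leca2 controls. Both Leca lines thus had no signal above background in mutants or controls, and no fold is given for them. The Sey change exceeded that of Leca4 by 2.40 ± 0.12 (adjusted p = 3.05e-10) and that of Leca2 by 2.39 ± 0.12 (adjusted p = 3.65e-10). These sizes depend on the background values of the other groups, and Gbx2 entered all tests only through its values in Sey mutants.

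Uncx rose in Sey and in Leca4 mutants. Its values were 7.13, 6.92, 7.31 and 7.39 in Sey mutants, against 3.69, 4.53 and 4.39 in Sey controls, which were all at background. The groups did not overlap, and the rise was at least 3.47-fold, with a fitted change of 2.99 ± 0.30 and an adjusted p of 8.80e-07. In the Leca4 line Uncx was 6.69, 6.10 and 6.74 in mutants, against 4.52, 5.59, 4.60 and 5.17 in controls. Here too every mutant lay above every control, and 3 of the 4 controls were at background, with the highest control just above it. The Leca4 change was 1.54 ± 0.30, with an adjusted p of 0.00422, and its size depends on the background values of the controls. With every value at background set to the level of its array, the change was 0.92 in Leca4 (adjusted p = 0.00149) and 1.80 in Sey (adjusted p = 1.91e-07). Leca4 mutant and control arrays of the other 5 genes overlapped, where 15.3% of all genes had no overlap.

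Leca2 gave no call for Uncx. The values were 5.15, 5.22, 4.23 and 4.85 in Leca2 mutants, all at background, against 6.26, 5.32 and 5.11 in Leca2 controls, of which 1 was above background. The 2 groups overlapped, as they did for all 6 genes in this line, where 6.60% of all genes had no overlap. The fitted difference was -0.70 ± 0.30, with an unadjusted p of 0.0325 and an adjusted p of 0.656. Between lines, the Uncx change was larger in Sey than in Leca2 by 3.69 ± 0.43 (adjusted p = 2.32e-05) and larger in Leca4 than in Leca2 by 2.24 ± 0.43 (adjusted p = 0.00695). It was larger in Sey than in Leca4 by 1.45 ± 0.43, with an adjusted p of 0.0320. That last call was lost with a term for sex, at 1.35 and an adjusted p of 0.0778. It was also lost without any 1 of 6 arrays, which were Sey mutant 3, Sey mutant 4, Sey control 1, Leca4 mutant 2, Leca4 control 2 and Leca4 control 4, at differences of 1.41, 1.38, 1.19, 1.24, 1.24 and 1.38. The sizes of these differences depend on background values, since all Sey controls and Leca2 mutants, 3 of 4 Leca4 controls and 2 of 3 Leca2 controls were at background. With background values set to the level of each array, the differences were 2.06 between Sey and Leca2, 1.18 between Leca4 and Leca2 and 0.88 between Sey and Leca4, with adjusted p-values of 1.18e-05, 0.00686 and 0.0153.

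Lhx9 was well above background in all groups and rose in Sey mutants. It was 9.11, 9.37, 9.04 and 9.57 in Sey mutants, against 7.37, 7.91 and 7.35 in Sey controls. The lowest mutant lay above the highest control by more than the range of either group. The change was 1.73 ± 0.28, which is 3.31-fold, with an adjusted p of 0.000154. In Leca4 Lhx9 was 8.62, 7.62 and 9.05 in mutants, against 7.66, 8.54, 7.90 and 8.59 in controls. In Leca2 it was 8.50, 8.57, 8.42 and 8.91 in mutants, against 8.67, 8.06 and 8.28 in controls. Both pairs of groups overlapped: Leca4 mutants held the lowest and the highest value of their line. The changes were 0.26 ± 0.28 in each, with 95% confidence intervals of -0.33 to 0.84 in Leca4 and -0.32 to 0.85 in Leca2.

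The Sey change of Lhx9 was larger than that in Leca4 by 1.47 ± 0.39 (adjusted p = 0.0184) and larger than that in Leca2 by 1.46 ± 0.39 (adjusted p = 0.0300). With a term for sex these differences were 1.25 (adjusted p = 0.0558) and 1.06 (adjusted p = 0.287). The difference from Leca4 was 1.07, with an adjusted p of 0.0530, without Leca4 mutant 2, the array with the lowest Lhx9 value of that group. The difference from Leca2 lost its call without any 1 of Sey mutant 4, Sey control 1, Sey control 3, Leca2 mutant 2, Leca2 mutant 3, Leca2 control 1 and Leca2 control 3, at 1.36, 1.38, 1.37, 1.45, 1.41, 1.30 and 1.49. The rise within Sey was called in each of these settings.

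All 4 probe sets of Lhx9 were called higher in Sey mutants. Beside 1419324_at, the changes were 1.53 ± 0.34 for 1429905_at, 0.63 ± 0.12 for 1431598_a_at and 1.83 ± 0.30 for 1441313_x_at, with adjusted p-values over probe sets of 0.00390, 0.00111 and 0.000237. The last was at background in all Sey controls, with means of 7.02 ± 0.47 in Sey mutants and 5.18 ± 0.14 in Sey controls (SD). It passed the filter only through the 4 arrays of Sey mutants, so its call is given as a description. No Lhx9 probe set was called in Leca4 or Leca2. There 1441313_x_at was at background on all arrays except 1 Leca4 mutant, and the changes of the other 3 were 0.26 to 0.30 for the Leca4 line and 0.19 to 0.26 for the Leca2 line. The difference between Sey and the Leca lines was smaller on 1431598_a_at, at 0.34 from Leca4 and 0.45 from Leca2 with adjusted p-values of 0.235 and 0.161, and was not called on 1429905_at either, at 1.22 and 1.32 with 0.120 and 0.136.

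**Figure D2:**
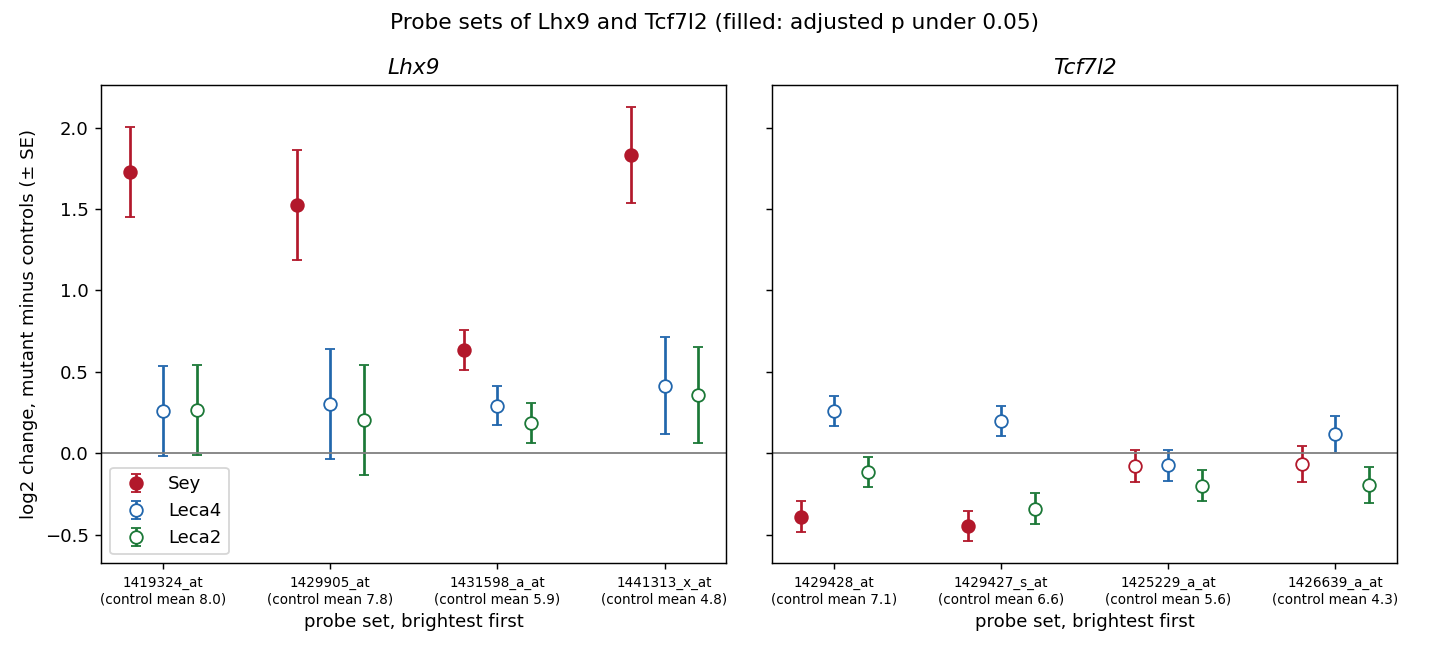
Log2 change of each probe set of Lhx9 and Tcf7l2, mutant minus controls with the standard error of the fit, for Sey, Leca4 and Leca2; filled points are called at an adjusted p under 0.05, and the control mean under each name is the mean of the 3 control groups. All 4 Lhx9 probe sets are filled for Sey, of which 1441313_x_at passed the filter only through Sey mutants. The 2 brighter Tcf7l2 probe sets lie below 0 for Sey.

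Otx2 was near background in most groups and spread widely within them. It was 6.82, 7.07, 5.76 and 6.61 in Sey mutants, against 4.90, 5.18 and 5.52 in Sey controls. The groups did not overlap, but mutant 3 lay closer to the highest control than to the other mutants. The difference was 1.36 ± 0.55, with a 95% confidence interval of 0.22 to 2.50 and an adjusted p of 0.0889, and it was called when only the arrays of the Sey line entered the fit (adjusted p = 0.0120) and, at 1.13, with background values set to the level of each array (adjusted p = 0.00994). Otx2 was 4.30, 3.95 and 6.05 in Leca4 mutants, against 5.06, 5.89, 6.18 and 6.21 in Leca4 controls. It was 5.79, 6.79, 5.84 and 6.59 in Leca2 mutants, against 6.59, 3.94 and 6.18 in Leca2 controls. Within each Leca line the groups overlapped, with 1 high mutant in Leca4 and 1 low control in Leca2. The fitted differences were -1.07 ± 0.55 in Leca4 (adjusted p = 0.313) and 0.69 ± 0.55 in Leca2 (adjusted p = 0.971).

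The Sey and Leca4 values of Otx2 differed from their controls in opposite directions, and the difference between them was 2.43 ± 0.77, with an adjusted p of 0.0446. This call depended on single arrays. It was kept without Sey mutant 3, Leca4 mutant 3 or Leca4 control 1, at 2.69, 3.07 and 2.68. It was lost without any 1 of the other 11 arrays of both lines, of which Leca4 mutant 2 moved it most, to 2.02 (adjusted p = 0.130), and it was lost with a term for sex, at 2.27 (adjusted p = 0.0985). With the same value it was also lost with no filter (adjusted p = 0.0535), with each probe set on its own (adjusted p = 0.0534) and with a variance trend and robust fit (adjusted p = 0.0631). The differences of Otx2 between Sey and Leca2 (0.67 ± 0.77) and between Leca4 and Leca2 (-1.75 ± 0.77) were not called, with adjusted p-values of 0.721 and 0.290.

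Otx1, a gene of cortical progenitors, had high values in all groups. It was 9.29, 9.49, 9.38 and 9.38 in Sey mutants, against 8.91, 9.07 and 9.02 in Sey controls. Every mutant lay above every control, but the difference was 0.39 ± 0.14, which is 1.31-fold, with a 95% confidence interval of 0.09 to 0.69 and an adjusted p of 0.0632. It was called when only the Sey line entered the fit (adjusted p = 0.00392) and with array weights (0.42, adjusted p = 0.0118). In Leca4 Otx1 was 9.56, 9.03 and 9.49 in mutants, against 9.23, 9.54, 9.07 and 9.21 in controls. Leca2 mutants had 9.86, 9.74, 9.32 and 9.86, against 9.93, 9.48 and 9.70 in Leca2 controls. Neither line separated its groups, with intervals of -0.20 to 0.40 in Leca4 and -0.31 to 0.29 in Leca2. No difference between lines was called for Otx1.

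Tcf7l2 was the gene of the 6 that fell in Sey mutants. Its values were 6.54, 6.73, 6.80 and 6.65 in Sey mutants, against 7.05, 7.14 and 7.02 in Sey controls. All mutants lay below all controls, and the change was -0.39 ± 0.09, which is 1.31-fold lower, with an adjusted p of 0.00419. In Leca4 Tcf7l2 was 7.35, 7.31 and 7.68 in mutants, against 7.14, 7.31, 7.14 and 7.17 in controls. In Leca2 it was 7.07, 6.99, 6.78 and 7.10 in mutants, against 7.20, 7.03 and 7.07 in controls. Both overlapped, in Leca4 through a single control that lay just above the lowest mutant. The differences were 0.26 ± 0.09 in Leca4 (adjusted p = 0.119, called with an adjusted p of 0.0445 when the controls of both Leca lines were pooled) and -0.12 ± 0.09 in Leca2 (adjusted p = 0.969). The pooled controls came from lines that appear to have been normalized separately, with 47.4% of all genes called between them. The change in Sey was below that in Leca4 by 0.65 ± 0.13 (difference -0.65, adjusted p = 0.00228), and it was not called different from that in Leca2 (-0.27 ± 0.13, adjusted p = 0.249).

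The probe sets of Tcf7l2 gave different sizes. In Sey the change was -0.45 ± 0.09 for 1429427_s_at (adjusted p = 0.00211 over probe sets), with means of 5.97 ± 0.16 in mutants and 6.42 ± 0.10 in controls (SD). It was -0.08 ± 0.10 for 1425229_a_at (adjusted p = 0.663), whose group means of 5.45 and 5.53 were close to background. The probe set 1426639_a_at did not pass the filter and lay at background on all arrays. The fall in Sey thus rests on the 2 brighter probe sets, and on 1425229_a_at the difference between Sey and Leca4 was -0.00.

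**Figure D3:**
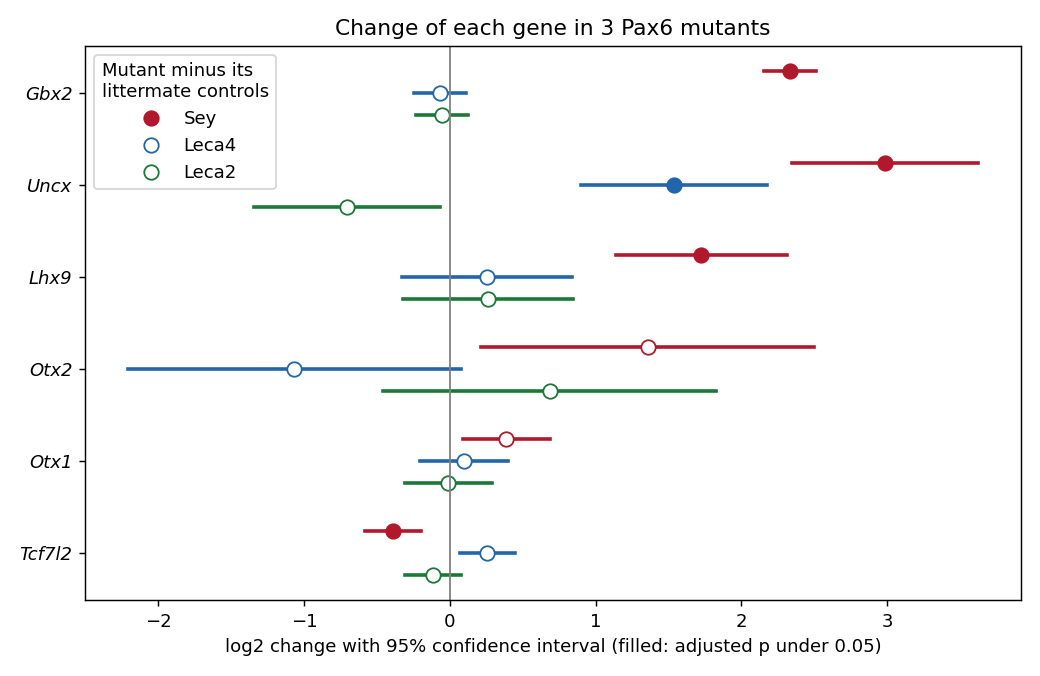
Log2 change of each gene, mutant minus its littermate controls, with the 95% confidence interval of the fit for Sey, Leca4 and Leca2; filled points are called at an adjusted p under 0.05. Gbx2, Uncx and Lhx9 are filled to the right of 0 and Tcf7l2 to the left for Sey, and Uncx is the gene filled for Leca4.

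Of the 6 genes, 5 were called in the difference between Sey and Leca4, where 12.8% of all genes were called. Without Leca4 mutant 2 the count was 2, and it was 3 without any 1 of Leca4 control 2, Leca4 control 4, Sey control 1 and Sey mutant 4. Gbx2 and Tcf7l2 were called in the Sey and Leca4 difference under the term for sex, which left 2 of the 6. Between Sey and Leca2, 3 of the 6 were called, where 6.69% of all genes were called, and between Leca4 and Leca2 only Uncx was called, where 2.38% of all genes were called. Each of these compares changes against separate controls, so that the 2 sides share no arrays. The counts and shares stand side by side as a description, since the 6 genes were chosen with earlier results known. Gbx2 was tested only through its values in Sey mutants.

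In some groups the same array was highest or lowest for several of the 6 genes. Leca4 mutant 2 had the lowest value of its group for Uncx, Lhx9, Otx2, Otx1 and Tcf7l2, and Leca4 mutant 3 had the highest for Uncx, Lhx9, Otx2 and Tcf7l2. Set against the mean of Leca4 controls, Lhx9 was -0.55 on Leca4 mutant 2 and 0.88 on Leca4 mutant 3, and Otx2 was -1.89 and 0.22. Among Leca2 controls, replicate 1 had the highest value for Uncx, Lhx9, Otx2, Otx1 and Tcf7l2. Otx2 on Leca2 control 2 lay 1.63 below the mean of its group. Gbx2 in Sey mutants moved within a narrower band, between 2.22 and 2.52 above the mean of Sey controls.

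**Figure D4:**
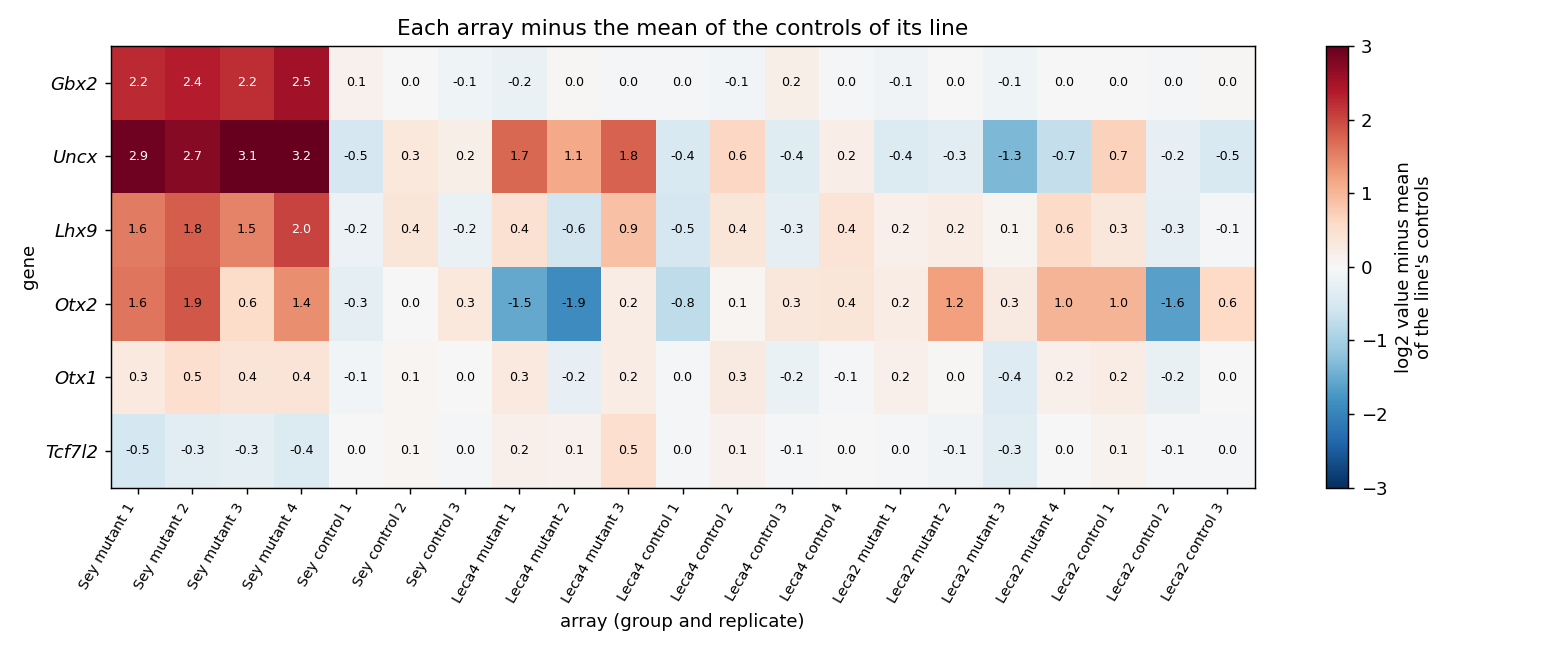
Log2 value of each gene on each array minus the mean of the controls of the same line (colour and number), with arrays by group and replicate from Sey to Leca2 and mutants left of controls. The Sey mutants are positive for all genes except Tcf7l2, and Otx2 is the gene whose values differ most within the Leca groups.

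The control groups themselves differed in these genes. Otx1 ran from 8.91 to 9.07 in Sey controls, against 9.48 to 9.93 in Leca2 controls, a difference of -0.70 (adjusted p = 0.000575). It ran from 9.07 to 9.54 in Leca4 controls, a difference of -0.44 from Leca2 controls (adjusted p = 0.0169). Both differences were called on values normalized together by quantiles, at -0.42 and -0.54, and on values centred on each array's median, at -0.59 and -0.55. Uncx averaged 4.20 ± 0.45 in Sey controls, all at background, and 5.57 ± 0.61 in Leca2 controls, of which 1 was above background (SD, n = 3 each). The difference of -1.37 was called under all 3 scalings, and its size depends on background values. Lhx9 was lower in Sey controls, at 7.54 ± 0.32 (n = 3), than in Leca4 controls, at 8.17 ± 0.46 (n = 4), and Leca2 controls, at 8.34 ± 0.31 (SD, n = 3), but these differences of -0.63 and -0.79 were called only on the values as deposited. Between Sey and Leca controls, strain, line and normalization cannot be told apart. Between Sey and Leca2 controls neither can sex, with 3 males among Sey controls and 3 females among Leca2 controls. Leca4 and Leca2 controls share their strain but differ in line and in sex, with 3 males and 1 female among Leca4 controls and 3 females among Leca2 controls, and the part of these in the Otx1 difference was not tested. Of all genes, 76.2%, 63.1% and 47.4% were called between Sey and Leca4, Sey and Leca2, and Leca4 and Leca2 controls.

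Of 14 other genes of the thalamus and habenula, 9 were tested, and in Sey 3 rose and 2 fell, beside 20.2% of all genes called, with a median change of 0.45 for the list and 0.00 for all genes. Prox1, a homeodomain factor, rose at least 2.66-fold, with means of 6.80 in Sey mutants and 4.52 in Sey controls, which were all at background (adjusted p = 4.50e-06). Prox1 passed the filter only through the 4 arrays of Sey mutants, so its call and its part in the count are given as a description. Foxp2, a forkhead factor, rose by 0.83 ± 0.13 and Ror2, a receptor for Wnt5a, by 0.77 ± 0.18. Slc17a6, the vesicular glutamate transporter of thalamic and of young cortical neurons, fell by 1.18 ± 0.09, and Cdh6, a cadherin, fell by 1.23 ± 0.14. In Leca4, Dbx1, a homeodomain factor of progenitors, rose by 2.52 ± 0.29, with means of 8.18 in mutants and 5.66 in controls. Foxp2 fell there by 0.60 ± 0.13, and 5.62% of all genes were called. In Leca2 no gene of the list was called, beside 0.477% of all genes, and the median change of the list was -0.00.

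Markers of the neighbouring regions were called in Sey in 2 of 6 tested for the prethalamus, 0 of 6 for the hypothalamus and 1 of 4 for pretectum and midbrain, beside 20.2% of all genes. Of 13 genes for the prethalamus and the zona limitans intrathalamica, 6 were tested in Sey, and Gsx2, which also marks the ventral telencephalon, rose by 3.15 ± 0.28 while Fezf2, which cortical neurons express as well, fell by 0.35 ± 0.09. Of 11 hypothalamic genes, 6 were tested and limma called none in any line. Of 12 genes for pretectum and midbrain, 4 were tested. Sall3, a zinc finger factor, rose by 0.45 ± 0.10 in Sey and fell by 0.81 ± 0.10 in Leca4, where 5.62% of all genes were called. The median changes in Sey were -0.05 for the prethalamic, -0.07 for the hypothalamic and -0.01 for the pretectal list. Lists of this kind have many members at background: in Sey mutants 3 of 14 thalamic, 3 of 9 measured prethalamic, 3 of 10 measured hypothalamic and 6 of 10 measured pretectal genes were at background on all arrays, against 6, 4, 4 and 6 in Sey controls.

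Among relatives of Lhx9, the LIM-homeodomain factors with their LIM-only and LIM-binding partners, 15 of 17 were tested. In Sey 5 rose and 1 fell, beside 10.7% up and 9.41% down of all genes. The risers were Lhx5 (1.15 ± 0.13) and Lhx1 (0.82 ± 0.14), both of which mark early-born cortical neurons, and Lmo2 (0.52 ± 0.08), Lmo4 (0.52 ± 0.08) and Lhx2 (0.40 ± 0.11), the last a selector of cortical identity. Ldb2, which encodes a partner that LIM-homeodomain factors bind, fell by 1.43 ± 0.21. In Leca4, Lmo4 rose by 0.50 ± 0.08 and Lmo1 fell by 0.27 ± 0.08, beside 5.62% of all genes called. In Leca2 none of the list was called, where 0.477% of all genes were called. The list's median was 0.08 in Sey, -0.06 in Leca4 and 0.01 in Leca2.

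Of 10 relatives and partners of Otx, Gbx and Tcf proteins, 7 were tested. In Sey, Tle1, a Groucho co-repressor, rose by 1.04 ± 0.09 and Lef1, of the same family as Tcf7l2, by 0.49 ± 0.17, while Tle3, another Groucho co-repressor, fell by 0.21 ± 0.06. That is 2 up and 1 down, beside 10.7% and 9.41% of all genes. None of the 7 was called in Leca4 or Leca2, where 5.62% and 0.477% of all genes were called. Genes that respond to or tune Wnt signals went in both directions in Sey, with 3 up and 2 down among 10 tested of 13. The shares of all genes were 10.7% up and 9.41% down. Axin2, a feedback inhibitor, rose by 0.48 ± 0.12 and Sp5, a zinc finger factor, by 0.56 ± 0.18. Wif1, a secreted Wnt antagonist, rose at least 1.52-fold, with its controls all at background. It passed the filter only through 3 arrays of Sey mutants, so its call is given as a description. Apcdd1, a membrane inhibitor, fell by 1.28 ± 0.18 and Dkk3, a secreted member of the Dickkopf family, fell by 0.60 ± 0.13. Dkk3 also fell in Leca4, by 0.67 ± 0.13, beside 5.62% of all genes called. No gene of this list was called in Leca2, where 0.477% of all genes were called. Tcf7l2 thus fell beside Wnt-related genes that moved either way.

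The genes most like each of the 6 were sought by the correlation of values, each taken minus the mean of the controls of its line, over the 21 arrays. These arrays share groups, lines and controls, so the coefficients describe mainly the group means. Closest to Gbx2 was Wls, which cells need to secrete Wnt proteins (r = 0.98). Wls was 8.43, 8.86, 8.72 and 8.80 in Sey mutants, against 5.69, 5.83 and 5.63 in Sey controls, with changes of 2.99 in Sey, -0.21 in Leca4 and 0.22 in Leca2. Next to Gbx2 stood Anks1 (r = 0.97) and Wif1 (r = 0.97). Uncx was most like Crabp2, which binds retinoic acid in cells (r = 0.95), then St18 (r = 0.95) and Fbln1 (r = 0.95). Crabp2 changed by 1.78 in Sey (adjusted p = 2.93e-05) and by 1.17 in Leca4 (adjusted p = 0.00638), against 0.00 in Leca2 (adjusted p = 1).

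Lhx9 was most like Prr13 (r = 0.95), Prox1 (r = 0.95) and Eya1 (r = 0.95). Prox1, like Foxp2 and Ror2, is a thalamic marker that rose in Sey, while Slc17a6 and Cdh6 of that list fell. Otx2 was most like Wnt8b, a Wnt ligand of the dorsal midline (r = 0.93), then Htra1 (r = 0.89) and Pipox (r = 0.86). Wnt8b was 9.09, 9.68, 8.04 and 9.39 in Sey mutants, against 7.42, 7.83 and 7.21 in Sey controls. It was 5.23, 3.90 and 7.89 in Leca4 mutants, against 5.39, 7.13, 7.43 and 7.86 in Leca4 controls. As with Otx2, Sey mutant 3 was the lowest of its group, and Leca4 mutant 3 stood far above the other Leca4 mutants. Wnt8b was not called in any line. Otx1 was most like Cmc2 (r = 0.94), and Tcf7l2 was most like Rgs20 (r = 0.95), which fell by 0.64 in Sey.

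Markers of other cell types and regions moved in the same groups, and their part in the changes of the 6 genes was not tested. The Sey counts that follow stand beside 20.2% of all genes called in Sey, 10.7% up and 9.41% down. In Sey, 8 of 13 tested markers of the ventral telencephalon rose and none fell, and the log2 of their summed level ran from 13.43 to 13.98 in mutants, against 10.41 to 10.81 in controls. Of the 13, 2 were at background in Sey controls, and Dlx6, which rose, passed the filter only through Sey mutants. Cajal-Retzius markers, a class of early-born neurons, rose in Sey in 8 of 10 tested, with summed levels of 12.50 to 12.94 in mutants, against 11.98 to 12.23 in controls. Markers of the meninges, the coverings of the brain, rose in 2 of 6 tested, Crabp2 and Prrx1, with summed levels of 10.22 to 10.32 in Sey mutants, against 9.37 to 9.53 in Sey controls. The uncalled Col1a2, Foxc1, Col3a1 and Dcn differed by -0.02, -0.06, 0.19 and 0.46 in Sey. Of 11 tested markers of the cortical hem and choroid plexus, a list that holds Otx2, Wnt5a rose by 1.21 ± 0.19 and Rspo3 fell by 0.92 ± 0.09 in Sey. Ttr, the marker that defines choroid plexus epithelium, averaged 6.64 in Sey mutants and 6.77 in Sey controls. Of 10 tested markers of dorsal cortex, 2 rose and 6 fell in Sey, with summed levels of 14.69 to 14.90 in mutants, against 15.13 to 15.19 in controls. Of markers of the olfactory system 2 of 5 tested rose and 1 fell in Sey, of endothelial markers 1 of 8 rose, and none of 4 erythroid and 7 microglial markers was called. In RNA of whole tissue, fewer cells of a type and less RNA per cell cannot be told apart.

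In Leca4, where Uncx rose, 3.39% of all genes were called up and 2.24% down. Beside the rise of Uncx, 2 of 6 tested meningeal markers rose, Crabp2 and Prrx1, by 1.17 ± 0.24 and 0.95 ± 0.17. The median change of this list was -0.10, the uncalled Col1a2, Dcn and Col3a1 differed by -0.42, -0.32 and -0.23, and the summed levels of the list were 10.32 to 10.64 in Leca4 mutants, against 9.80 to 10.17 in Leca4 controls. Wnt5a of the cortical hem list rose in Leca4 by 0.93 ± 0.19 (adjusted p = 0.00536), and Eya2 of the olfactory list rose at least 1.55-fold, with means of 6.22 in Leca4 mutants and 5.06 in Leca4 controls, which were all at background (adjusted p = 0.000147). Of 7 tested markers of microglia, 4 rose in Leca4, with summed levels of 10.84 to 11.05 in mutants, against 10.49 to 10.66 in controls. No marker of ventral telencephalon, Cajal-Retzius cells or dorsal cortex was called in Leca4. Their part in the change of Uncx was not tested either. In Leca2, where none of the 6 genes and 0.477% of all genes were called, no gene of the marker lists was called.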

How the data were processed

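Total RNA from rostral cerebral cortex was hybridized to 21 arrays. Per the submitters' processing notes the authors used RMA, and the deposited values are log2 expression values per probe set, made with a version and settings not given in the sources used here. Array medians ran from 6.03 to 6.07 in Sey, 6.25 to 6.26 in Leca4 and 6.11 to 6.18 in Leca2, so the lines appear to have been normalized separately. Probe sets were named from the platform annotation, which can be old: 34945 of 45101 named 1 gene, 932 several and 9160 none, and 34741 of the symbols stood in the RefSeq gene table of GRCm38.p6. A probe set stayed in when 3 or more arrays exceeded their own 40th percentile, taken over all but 64 control probe sets, which left 29474, and a gene was represented by its brightest kept probe set, giving 13850 genes.

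One model of the 6 groups was fitted by lmFit and eBayes of limma 3.58.1, run in R 4.3.3 (15 residual and 3.54 prior degrees of freedom), two-sided, with Benjamini-Hochberg adjustment per contrast and a threshold of 0.05. Contrasts were each mutant minus its own controls, the differences between these changes, and control against control. For a group wholly at background, the fold is the other group's mean over the mean background level. Named genes were the 6 genes, Pax6, up to 3 genes most like each of the 6, and some genes of the lists. Not every called gene of a list was named, and some uncalled genes were. The members and lists were chosen with earlier results of these data known. Sex was read from X and Y genes. Replicate numbers were tried as a block, and same-numbered arrays did not deviate together (correlations from -0.44 to 0.34), so the numbers were not taken as pairs. Alternatives were the arrays of 1 line, no filter and a filter at the 60th percentile, the mean of probe sets and each probe set, a variance trend with robust fit, array weights, quantile normalization, median centring, a term for sex, the Leca controls together, leaving out each array, and, added later, setting background values to the level of the array. On simulated data, the fit was tested with 200 genes changed. No pair of arrays was identical.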

Additional observations from a re-analysis of the deposited data

Results flagged for a closer look

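The change in Sey differed from that in Leca4, by limma's test of the difference, for Gbx2 (2.40), Uncx (1.45), Lhx9 (1.47), Otx2 (2.43) and Tcf7l2 (-0.65), with adjusted p-values of 3.05e-10, 0.0320, 0.0184, 0.0446 and 0.00228. It differed from that in Leca2 for Gbx2 (2.39), Uncx (3.69) and Lhx9 (1.46), with adjusted p-values of 3.65e-10, 2.32e-05 and 0.0300. The change of Uncx in Leca4 differed from that in Leca2 by 2.24 (adjusted p = 0.00695). These are log2 differences, the first-named line minus the second. Gbx2 was tested only through its values in Sey mutants. The 6 genes gave 18 sets of 4 arrays, in Sey mutants, Leca4 controls and Leca2 mutants, and none held an array that stood apart by Dixon's test at 95%; groups of 3 arrays were not tested.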

How the results depend on the processing

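Calls within a line held more often than calls between lines. Leaving out 1 array at a time left 4 genes called in Sey, 1 in Leca4 and none in Leca2 each time, while the counts ran from 2 to 5 for Sey against Leca4, from 2 to 3 for Sey against Leca2 and stayed at 1 for Leca4 against Leca2. With replicate numbers as a block, 2 genes were called between Sey and Leca4, 2 between Sey and Leca2 (Lhx9 lost its call at 1.47, adjusted p = 0.117) and 0 between Leca4 and Leca2 (Uncx 2.31, adjusted p = 0.0528; Lhx9 turned to 0.23), and all 4 Sey calls and the Leca4 call held; the numbers did not pair the samples. The Sey and Leca4 difference had 3 genes under the 60th percentile filter, which removed Gbx2 and Otx2 from the test, and 2 with a term for sex. Fitting the Sey arrays alone brought Otx2 (1.36) and Otx1 (0.39) past the threshold, and array weights brought Otx1 (0.42). With the Leca controls together, Tcf7l2 in Leca4 was called (0.30) and 2 genes in all, and Gbx2 (0.13) and Otx1 (-0.0928) in Leca4 and Otx1 in Leca2 (0.24) changed sign. This setting joins controls of lines that appear to have been normalized separately. Uncalled values near 0 also changed sign for Otx1 in Leca2 with a term for sex (0.00450) and array weights (0.0822), for Gbx2 between Leca4 and Leca2 with a term for sex (0.00567), and for Lhx9 between Leca4 and Leca2 with array weights (0.0527), centring (0.00542), the mean of probe sets (0.0644) and the other 3 probe sets (0.0984, 0.107 and 0.0588). Probe set 1425229_a_at of Tcf7l2 gave -0.0776 in Sey (no longer called), -0.0755 in Leca4 and 0.12 between Sey and Leca2, both with the sign turned. Differences of the 6 members were taken in 3 pairs of control groups. Of these, 9 were called as deposited and 5 each under quantile normalization and centring, 2 alternatives chosen after seeing the data. As deposited, 76.2%, 63.1% and 47.4% of all genes were called between Sey and Leca4, Sey and Leca2, and Leca4 and Leca2 controls. The counts include Gbx2, which was at background in all control groups. With background values set to the level of each array, also chosen after seeing the data, Otx2 was called in Sey (1.13), and Gbx2 turned sign in Leca4 (0.00455) and between Leca4 and Leca2 (0.0115), where its values are background. The Otx2 difference between Sey and Leca4 lost its call with no filter, each probe set on its own and the trend and robust variance (adjusted p-values of 0.0535, 0.0534 and 0.0631). The causes were not tested. Without 1 array the signs turned only for uncalled values: Gbx2 in Leca4 (-0.121 to 0.00300), Lhx9 in Leca4 (-0.0528 to 0.662), Otx1 in Leca4 (-0.00300 to 0.262), Otx2 in Leca2 (-0.13 to 1.20), Otx1 in Leca2 (-0.12 to 0.11), and between Leca4 and Leca2 Gbx2 (-0.0663 to 0.0573), Lhx9 (-0.316 to 0.398) and Otx1 (-0.0185 to 0.273). Values near background, for Gbx2, Uncx and Otx2, bound what can be measured.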
